A study of Mus musculus with 11 samples.

Results

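Distal open chromatin of embryonic dopaminergic (DA) neurons is described here through 4794 of the 131942 rows for which ATAC-seq scores were deposited on the mm9 build of the mouse genome. The rows were selected on their scores and their position. Each had a score above 0, that is a peak, in all 3 DA libraries and a score of 0 in both libraries of serotonergic (5-HT) neurons. Its centre lay outside the promoters (1 kb before a TSS up to 100 bp after it) and the gene bodies of the GENCODE annotation, and more than 50 kb away from every TSS of protein-coding genes. These rows are called distal DA-only rows below, and their presence in DA and absence in 5-HT libraries is the rule that chose them and not a result.

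ATAC-seq marks DNA that a transposase can reach, which in neurons includes promoters, enhancers and sites bound by architectural proteins. Enhancers of developmental genes often lie far from the promoter they act on, and many sit in gene deserts, long stretches without coding genes that commonly flank genes for transcription factors, guidance receptors and adhesion molecules. In the ventral midbrain, DA neurons arise from floor plate progenitors under factors such as Foxa2, Otx2, Lmx1a, Lmx1b, En1 and Nr4a2, each of which binds short DNA words.

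The DA cells came from TH-GFP embryos, which carry GFP under the *Th* promoter on a line kept on a C57BL/6J background. They were sorted as GFP+ cells from ventral mesencephalons at E14.5. The 5-HT cells came from Mash1-CRE x ROSA YFP embryos of the same age and were sorted as YFP+ cells from the anterior hindbrain. In both groups the fathers were transgenic and the mothers wild-type Swiss mice, and cells of several embryos were pooled for a sort. GFP follows the activity of a *Th* promoter and not dopamine itself, and Mash1-CRE marks every cell whose ancestors expressed Mash1, a proneural gene that is not restricted to the 5-HT lineage. The lines, the dissected tissues and the neuron types all differ between the groups and cannot be told apart. Per the study's methods, each 5-HT library was also made from fewer sorted cells than any DA library, and its part in the lengths of the peak lists, and so in the absence of 5-HT peaks, was not tested.

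DA replicate 1 had a peak in 52861 rows, replicate 2 in 93055 and replicate 3 in 94351, while 5-HT replicate 1 had one in 38772 and replicate 2 in 22879. Sequencing depth is unknown, since lists of peaks hold no read counts, and both 5-HT lists are shorter than any DA list. The labels name separate samples but not separate litters, so a p-value below measures the spread between samples only. No scale is named for the score. Scores are therefore compared within a library, except where rows are ranked by the lowest of their 3 DA scores, which treats the 3 scales as 1.

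Promoters of marker genes were looked up in each library as a check of the labels. The promoters of *Th*, which encodes the rate-limiting enzyme of dopamine synthesis, and of *Lmx1a* had a peak in 3 of 3 DA libraries and in 0 of 2 5-HT libraries. *Th* scored 9.91, 10.6 and 8.45 in the DA replicates in turn. *Slc6a3* and *Slc18a2*, the dopamine and vesicular monoamine transporters, had one in each DA library and in 1 5-HT library, and *Nr4a2* and *Pitx3* in all 5 libraries. The DA label thus had its markers. Of the 5-HT markers, *Fev* had a promoter peak in 5-HT replicate 1 (score 3.88) and in no other library, *Tph2* and *Gata3* had one in all 5 libraries, and *Slc6a4*, the serotonin transporter, had one in the 3 DA libraries (4.80, 6.56 and 3.76) and in neither 5-HT library. Promoter peaks of *Tph2* and *Gata3* therefore did not separate the 5-HT libraries from the DA libraries and those of *Slc6a4* separated them in the direction opposite to the label, and expression of these genes was not analysed here. "5-HT" stands below for the label of these libraries. The promoters of *Gad1* and *Gad2*, markers of GABAergic neurons, were open in all 5 libraries. Among glial, vascular and microglial markers, *Gfap* and *Cldn5* were open in every DA library and in 5-HT replicate 1, *Olig2* in 2 DA and 2 5-HT libraries, and *Csf1r* in none. What other cells in the sorts contributed to the distal rows was not tested.

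Rows with DA-only presence anywhere in the genome numbered 17616, or 13.4% of all rows, and the 4794 distal ones were 13.1% of the 36465 distal intergenic rows of any kind. Of the 45672 rows in the genome with a peak in all 3 DA libraries, 38.6% were DA-only. Among intergenic rows within 50 kb of a coding TSS the share was 44.1% (3551 of 8048, 95% Wilson interval 43.0 to 45.2%), and among distal intergenic rows it was 56.4% (4794 of 8493, 55.4 to 57.5%). The other distal rows with 3 DA peaks comprised 2176 with a peak in 1 5-HT library and 1523 with a peak in all 5 libraries. The intervals cover counting error only, and since the rule uses this contrast, no test was made and nothing is read from these shares.

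Leaving out DA replicate 1, the DA library with the fewest peaks, raised the count to 9446, and leaving out 5-HT replicate 1 raised it to 6729. When all libraries were reduced to the length of the shortest list by keeping their 22879 best-scoring peaks, 667 distal rows were DA-only, 35.4% of those with 3 DA peaks, and the share was 26.4% with 10000 peaks per library. Of these 667 rows, 508 belong to the 4794 and 159 have a lower-scoring peak in a 5-HT library.

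At the distance threshold, the closest row inside lay at chr5:111960189-111960655, 50020 bp from the TSS of *C130026L21Rik*, where the scores were 4.54, 6.26 and 3.90 in the order of the DA replicates. The closest outside was chr2:4723165-4724306, 49973 bp from *Bend7*, and scored 8.27, 9.64 and 8.96. Both are DA-only, and only the distance separates them. On the score, the lowest values among the distal DA-only rows were 3.45, 3.05 and 3.03 in DA replicates 1, 2 and 3, while the lowest peaks in these lists as a whole scored 3.45, 3.04 and 3.03, so the rows reached down to the floor of each list. Outside this threshold the score is 0.

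Median scores of the distal DA-only rows were 4.47, 4.78 and 4.62 in DA replicates 1, 2 and 3, against 6.38, 7.21 and 6.89 for distal rows with a peak in all 5 libraries. DA-only intergenic rows within 50 kb had medians of 4.72, 5.30 and 4.89. In each DA library, the distal DA-only rows were thus the weakest of these 3 sets. The medians over all distal peaks of these libraries were 4.48, 3.95 and 3.55, and over all peaks 5.12, 4.44 and 4.01, so against either the distal DA-only rows were higher in replicates 2 and 3 and not in replicate 1. Their rule asks for a peak in each DA library, which these wider sets do not. The order of scores was shared between libraries, with Spearman correlations across the 4794 rows of 0.655, 0.669 and 0.718 for the pairs of DA libraries, given as a description since rows are not replicates. In distal rows with a peak in all 5 libraries, the same correlations were 0.851, 0.870 and 0.876.

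At an equal number of peaks, the share of peaks in distal sequence differed between the cell types by less than the spread between libraries. With each library limited to its 22879 highest-scoring peaks, 13.3%, 11.9% and 14.2% of the peaks of DA replicates 1, 2 and 3 were distal (13.1% ± 1.14, SD, n = 3), and 13.2% and 13.3% of those of 5-HT replicates 1 and 2. The difference of -0.13 percentage points between the means was tested between libraries (two-sided exact permutation test, p = 0.900, where 3 against 2 libraries can reach no p below 0.100). With all peaks, 19.8%, 22.6% and 28.2% were distal in the DA libraries and 17.6% and 13.3% in the 5-HT libraries, a difference of 8.09 points (exact p = 0.200). The sign at equal numbers also turned without DA replicate 2, to 0.47 points.

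The median distance of the distal DA-only rows to the nearest coding TSS was 154 kb, against 115 kb for distal rows with a peak in all 5 libraries and 166 kb for distal rows of any kind. Of the 4794 rows, 3331 (69.5%) lay beyond 100 kb, 1448 (30.2%) beyond 250 kb, 555 (11.6%) beyond 500 kb and 110 (2.29%) beyond 1 Mb. With a median width of 548 bp (range 120 to 3851 bp), they were narrower than the shared distal rows (831 bp) and wider than distal rows of any kind (296 bp). In distance and width they thus lay between these sets. A row's width belongs to the list common to the libraries and not to a single one.

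All autosomes and both sex chromosomes held distal DA-only rows, at a mean of 5.02 per Mb of the 955 Mb of sequence that meets the position rule. Densities on the autosomes lay between 4.47 per Mb on chromosome 14 and 6.46 per Mb on chromosome 10. Chromosome X stood below this range with 123 rows, or 1.68 per Mb. Rows with a peak in all 5 libraries were also sparse there, at 0.409 per Mb against 1.60 per Mb over all chromosomes. The low density on X was thus common to both sets. The sex of the pooled embryos is not given in the sources used here.

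In base composition, the central 200 bp of the distal DA-only rows had a median GC content of 45.5%, against 49.5% for distal rows with a peak in all 5 libraries, a difference of -4.00 percentage points. Windows 5 kb away that touch no row had a median of 41.5% (4768 windows). Distal rows of any kind had 46.5%. The rows thus lay between shared distal rows and the sequence around them, and close to distal rows at large. The median ratio of observed to expected CpG was 0.215, against 0.317 in the shared distal rows and 0.187 in distal rows of any kind. No CpG at all was held by 14.6% of the windows, against 6.04% and 17.9%. Windows with a GC content above 50% and a CpG ratio above 0.6, the composition of CpG islands, made up 1.04% (50 of 4794), against 9.78% of the shared distal rows (149 of 1523), 1.48% of distal rows of any kind and 10.8% of all rows. Few CpG and few CpG-island-like windows were therefore common to distal rows at large.

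Short words bound by families of transcription factors were searched for in both orientations in a window of 200 bp at each row's centre. The extended site of NR4A nuclear receptors, AAAGGTCA (read on the other strand as TGACCTTT), occurred in 196 of 4794 distal DA-only rows (4.09%, 95% Wilson interval 3.56 to 4.69%). It occurred in 1.05% of distal rows with a peak in all 5 libraries (16 of 1523), in 2.82% of DA-only intergenic rows within 50 kb, in 1.88% of all rows and in 0.902% of the windows 5 kb away. Read backwards without complementing, the same letters (ACTGGAAA) were found in 1.54% of the rows and 1.51% of the windows 5 kb away, nearly equal shares, whereas the word in its proper order differed between them.

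Words of homeodomain and forkhead factors were likewise more frequent in the distal DA-only rows than in the shared distal rows. TAATCC (on the other strand GGATTA), bound by OTX and PITX factors, was present in 11.5% of the distal DA-only rows, 5.65% of shared distal rows, 7.11% of all rows and 7.55% of windows 5 kb away. TAATTA, which reads the same on both strands and is bound by LIM and engrailed homeodomains, was present in 11.5%, 7.09%, 6.38% and 6.73% of these sets. For TGTTTAC (on the other strand GTAAACA), a forkhead word, the shares were 6.15%, 3.41%, 3.82% and 2.98%. DA-only intergenic rows within 50 kb held TAATCC in 9.86%, TAATTA in 7.91% and TGTTTAC in 4.84%, between the distal DA-only and the shared distal rows. The reversed words occurred in 8.95% (TAATCC), 9.22% (TAATTA) and 5.40% (TGTTTAC) of the distal DA-only rows, against 7.66%, 7.26% and 5.94% of the windows 5 kb away. Reversed TAATTA and TAATCC were thus also somewhat more frequent in the rows than around them, and reversed TGTTTAC was not.

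Proneural E-boxes were the most frequent of the words searched in the distal DA-only rows. CAGCTG, the same on both strands, was present in 23.3% of the distal DA-only rows, 20.3% of shared distal rows, 18.9% of all rows and 7.32% of windows 5 kb away, and CAGATG (on the other strand CATCTG) in 24.5%, 19.7%, 19.5% and 14.8%. For CAGCTG the contrast lay mainly between open and surrounding sequence, and for CAGATG it was of like size between the 3 sets of distal DA-only rows, shared distal rows and windows. The GATA word AGATAA (on the other strand TTATCT) was present in 11.8% of the distal DA-only rows and 8.34% of shared distal rows, but also in 12.8% of the windows 5 kb away and 9.21% of all rows. AP-1 words (TGANTCA, where N is any base) gave 6.74%, 4.92%, 6.73% and 6.14% in the same order.

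Of the other words, several were more frequent in the distal DA-only rows than in the windows 5 kb away and at a similar or lower share than in the shared distal rows. The EBF word CCCNNGGG was present in 5.99% of the distal DA-only rows, 7.55% of shared distal rows, 7.27% of all rows and 2.81% of windows 5 kb away. In the same order of sets, the NFI word TTGGCA (on the other strand TGCCAA) gave 14.4%, 16.0%, 13.4% and 9.08%, the RFX word GTTGCCA (on the other strand TGGCAAC) 4.36%, 4.66%, 3.84% and 1.53%, and the CTCF core AGGGGGC (on the other strand GCCCCCT) 2.92%, 4.27%, 4.96% and 1.82%. The CTCF core was present in 6.11% of DA-only intergenic rows within 50 kb. For TGACAG (on the other strand CTGTCA), bound by MEIS and TGIF, the shares were 17.9%, 17.5%, 16.9% and 12.0%. The remaining words differed less from the windows 5 kb away or were rarer than there. The SOX word ACAAAG (on the other strand CTTTGT) was present in 19.0%, 20.7%, 17.5% and 18.4%, and ACAATG (on the other strand CATTGT) in 10.6%, 13.5%, 10.5% and 13.3%. The TEAD word GGAATG (on the other strand CATTCC) gave 12.0%, 10.6%, 11.1% and 10.8%, the POU octamer ATGCAAAT (on the other strand ATTTGCAT) 1.96%, 2.69%, 1.75% and 1.59%, and the ONECUT word ATCGAT 0.501%, 0.854%, 0.619% and 0.965%. Words can overlap in part, as ACAAAG and AAAGGTCA do, and a match is a description of the letters and not of binding.

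The DA-only rows were poorer in GC than the shared rows, so the words were also counted in windows with a GC content from 40 to 50% only, a step added after the first counts were seen. Among these, AAAGGTCA was present in 4.34% of 2791 distal DA-only rows, 1.30% of 694 shared distal rows and 0.872% of 2293 windows 5 kb away. TAATCC gave 12.2%, 6.48% and 7.15%, TAATTA 12.1%, 8.65% and 3.75%, and TGTTTAC 6.13%, 4.47% and 2.70%. CAGCTG gave 22.1%, 18.6% and 9.11%, CAGATG 25.2%, 20.7% and 17.5%, ACAAAG 19.4%, 23.3% and 17.8%, and ACAATG 11.0%, 14.8% and 12.1%. The GATA word AGATAA gave 12.3%, 10.8% and 10.6%, a smaller gap to the shared rows than without the limit on GC, and against the windows 5 kb away its direction turned. The order of DA-only and shared rows was the same at like GC for these 9 words. Besides the GATA word, TAATTA and TGTTTAC had a smaller gap to the shared rows than without the limit, and CAGATG and TAATCC a slightly smaller one. TGTTTAC went from 6.15% against 3.41% without it to 6.13% against 4.47%. With every library limited to 22879 peaks, where 667 distal rows were DA-only and 701 were shared by all 5 libraries, AAAGGTCA was present in 3.60% and 0.713%, TAATCC in 10.3% and 4.99%, TAATTA in 10.6% and 6.13%, and TGTTTAC in 6.75% and 2.14%. The GATA word AGATAA gave 12.1% and 6.28%, CAGCTG 24.9% and 18.8%, CAGATG 24.1% and 19.4%, ACAAAG 17.4% and 19.1%, and ACAATG 9.90% and 11.3%. At an equal number of peaks, the contrast was therefore present for the 4 words, and also for the GATA word and the E-boxes.

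Positions of the words were followed in bins of 100 bp around the row centre, likewise added later. AAAGGTCA was found in 2.04% and 1.92% of the distal DA-only rows in the bins on either side of the centre and in 0.605% and 0.563% in the bins from 400 to 500 bp away. TAATCC went from 6.03% and 5.59% at the centre to 3.27% and 3.75%, and TGTTTAC from 2.80% and 3.27% to 1.79% and 1.54%. TAATTA had a shallower profile, from 6.03% and 5.76% to 4.44% and 4.76%. The words thus gathered at the centres of the DA-only rows. In shared distal rows, AAAGGTCA was in 0.460% and 0.657% of the central bins (7 and 10 rows) and in 0.657% and 0.394% of the outer ones (10 and 6 rows), with no such peak. These counts are small, and the shared rows were wider (median 831 bp against 548 bp). By score, the share with AAAGGTCA was 3.33% in the lowest of 5 classes of the DA-only rows by lowest DA score (960 rows) and 4.90% in the highest class (959 rows), while TAATTA gave 11.7% and 10.3%. At least 1 of the 4 words was present in 1399 distal DA-only rows (29.2%) and in 16.2% of shared distal rows, and at least 2 in 181 (3.78%) and 1.05%.

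When rows with centres at most 50 kb apart were chained, 2520 of the distal DA-only rows (52.6%) stood alone and 2274 (47.4%) had a neighbour. The median distance to the next row of the set was 56.0 kb. Chains of 2, 3 and 4 rows numbered 607, 193 and 69, and 32 clusters held 5 or more rows, with 205 rows between them. Clusters were thus mostly small. Leaving out DA replicate 1 raised the number of clusters of 5 or more to 241, leaving out 5-HT replicate 1 raised it to 116, and leaving out DA replicate 3 raised it to 49.

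Among clusters with 10 rows, the one with the highest scores lay on chromosome 1 between *En1* and *Insig2* (chr1:122857802-123121254, 263 kb). Engrailed-1, a homeodomain factor of the midbrain-hindbrain region, is needed for the survival of DA neurons, and Insig2 regulates sterol synthesis. The cluster began 360 kb downstream of the *En1* TSS and ended 83.0 kb from that of *Insig2*. Its highest row, chr1:122950126-122950612, scored 7.72, 12.2 and 8.63 in DA replicates 1, 2 and 3, and the next, chr1:122857802-122859307, scored 7.40, 9.29 and 8.45. Both stood well above the median of the whole set in each DA library. The remaining 8 rows had lowest scores between 3.35 and 4.95. Of 25 rows of any kind in the interval, 2 had 3 DA peaks and 1 5-HT peak, and 0 had a peak in all 5 libraries. None of the 32-letter words in the central windows of the 10 rows occurred elsewhere in the genome. One row (chr1:122979075-122979757) lay 4566 bp from the TSS of the lincRNA *B230209K01Rik*.

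Further large clusters in mostly unique sequence flanked genes of varied function. Between *Plekhb2* and *Hs6st1*, a heparan sulfate sulfotransferase, 9 rows spanned 175 kb (chr1:35881136-36055914), the highest being chr1:35906350-35907639 scoring 5.03, 5.60 and 5.95 in the 3 DA replicates in turn. Another 9 rows spanned 163 kb between *Gm7935* and the adhesion receptor gene *Bai1* (chr15:73986589-74149694), led by chr15:73986589-73987454 with 5.73, 7.34 and 6.33. A cluster of 8 rows between *Phlda1* and *Krr1* (chr10:111085300-111272981) held the row with the highest lowest score in any of the 8 largest clusters, chr10:111178411-111179158 with 11.9, 9.49 and 11.8. No row with 3 DA peaks in this interval had a peak in a 5-HT library, which also held for other clusters, such as that between *Gm2790* and *Gm2799*. Clusters were built from rows chosen for having no 5-HT peak, so this absence is in part fixed by the rule. Downstream of *Myo16*, a brain myosin, 7 rows spanned 158 kb (chr8:10699572-10857630), with lowest scores from 3.16 to 4.70.

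The other 3 of the 8 largest clusters lay among families of similar genes. They were 10 rows between *Gm2790* and *Gm2799* (chrX:30445650-30532066), 10 rows between *Gm9257* and *Gm10479* (chr12:20229725-20319448) and 8 rows between the prolactin family genes *Prl2c3* and *Prl2c2* (chr13:12955200-13032151). Their rows were wide, with medians of 1167, 1565 and 1311 bp, and scored low, with median lowest scores of 3.26, 3.16 and 3.23. The highest lowest score among them was 3.69. In the central windows, the median share of 32-letter words that occur more than once in the genome was 77.8%, 49.7% and 47.0%, against 0% in each of the other 5 clusters. Reads that lie wholly in repeated sequence cannot be placed uniquely, and how such reads were treated is not given in the sources used here. Over the whole set, 70 of 4794 rows (1.46%) had at least 50% of repeated words, against 1.97% of shared distal rows. Of these 70 rows, 55 lay outside clusters of 5 or more (1.20% of 4589 rows) and 15 inside (7.32% of 205 rows). All 15 belonged to the 3 clusters among gene families, with 7, 4 and 4 rows. Without these 70 rows, 30 clusters of 5 or more were found.

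Gene deserts, taken as stretches of at least 1 Mb between neighbouring coding gene bodies, numbered 269 and covered 473 Mb. They held 1394 of the 4794 distal DA-only rows (29.1%) and 330 of the 1523 shared distal rows (21.7%). Of distal rows of any kind, 31.3% lay in deserts (11416 of 36465). Per Mb of sequence that meets the position rule, the density of DA-only rows was 3.25 in deserts (429 Mb) and 6.47 outside them (526 Mb). Distal rows of any kind were also sparser in deserts, at 26.6 per Mb against 47.7 per Mb. Without DA replicate 1, the count in deserts was 2798. The median desert held 5.00 rows, 37 deserts held 10 or more and 20 held none.

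The desert with most rows, 20 in 3.61 Mb, lay on chromosome 5 between *Igfbp7*, an IGF-binding protein, and *Lphn3*, a latrophilin adhesion receptor (chr5:77837071-81449162). Its rows gathered at the *Igfbp7* end, where 13 of 20 lay within 625 kb of that gene's TSS, and 1 of its 25 rows with 3 DA peaks was shared by all 5 libraries. The highest row was chr5:78244964-78246340, which scored 10.2, 7.15 and 8.17 in DA replicates 1, 2 and 3. On chromosome 11, 17 rows lay in 3.44 Mb between the teneurin gene *Odz2* and *Mat2b* (chr11:37049467-40492815), among them chr11:37984304-37984637 with scores of 6.54, 7.95 and 7.69. These 17 rows had the highest median lowest score of the 6 deserts named here, 4.76.

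A pair of deserts on chromosome 16 held 16 rows each. In the desert between *Fam86* and *Rbfox1*, a neuronal splicing factor (chr16:5256077-6809314), 10.3 rows per Mb of sequenced bases were found, mostly towards *Fam86*. Between *Igsf11* and *Lsamp*, both cell adhesion genes (chr16:39027273-41532970), the density was 6.39 per Mb. Of 4 deserts with 14 rows, those between *Sox2* and *Atp11b* (chr3:34551384-35653055) and between *Gm16484* and *Nedd1* (chr10:90691258-92147490) had most rows per Mb, 12.7 and 9.61. *Sox2* encodes a factor of neural progenitors, and the rows in its desert lay between 132 and 854 kb from its TSS. The highest, chr3:35402479-35403313, scored 7.02, 7.39 and 6.11. In none of these 6 deserts did a row hold 50% or more of repeated words.

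The longest desert, 7.20 Mb between *Gm5591* and *Gm16387* on chromosome 7, held 1 row, but only 0.199 Mb of it is sequenced in this build. The next in length lay between *Celf4* and *Pik3c3* on chromosome 18 (4.52 Mb, 14 rows) and between *Olfm4* and *Pcdh17* on chromosome 14 (4.42 Mb, 12 rows), with 3.10 and 2.71 rows per Mb. On the same scale, the longest desert held 5.03 rows, a density that rests on its 1 row. The row farthest from any coding TSS was chr1:104104433-104105159, 2435 kb from *Cntnap5b* and 2560 kb from *Cdh20*, which scored 5.18, 4.88 and 4.43 in DA replicates 1, 2 and 3. A second row in the same desert, chr1:104042866-104043568, scored 3.91, 5.12 and 4.17, and another, chr1:104436135-104436398, scored 3.56, 3.33 and 4.08. The other 2 of the 5 farthest rows lay in the *Celf4* desert, at chr18:28155651-28156228 (5.28, 7.58 and 6.70) and chr18:28106051-28106586 (7.19, 5.78 and 5.31). Remoteness did not go with low scores, as the median lowest score was 4.36 for DA-only rows beyond 1000 kb and 4.05 for those from 50 to 100 kb.

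By the lowest of its 3 DA scores, the first row was chr15:28569976-28570679, 437 kb from *Dnahc5*, with 16.3, 17.6 and 20.5 in DA replicates 1, 2 and 3. The gene on its other side, at 1532 kb, was *Ctnnd2*, which encodes the neuronal delta-catenin. Second was chr6:107873195-107874502, between *Lrrn1* and *Setmar*, with 12.4, 12.8 and 12.9. It was followed by chr8:8420604-8421361, 218 kb from the guidance ligand gene *Efnb2*, with 12.3, 17.3 and 15.7. All 3 scored more than 2 times the median of the set in every DA library. Next came chr18:22448465-22449747 near *Asxl3* (11.9, 12.1 and 12.6), chr8:10198251-10198640 near *Myo16* (12.2, 14.7 and 11.6) and chr2:63311900-63312050 between the potassium channel gene *Kcnh7* and *Fign* (12.5, 14.9 and 11.4).

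The last 4 of the first 10 were chr12:64613958-64614337, 825 kb from *Spanxn4* (11.0, 12.3 and 17.6), chr4:6442037-6442368 between *Nsmaf* and *Tox* (12.2, 10.9 and 11.4), chr10:9325471-9325912 near *Samd5* (10.7, 12.2 and 11.0) and chr8:129348424-129349024 near *Tomm20* (13.7, 13.9 and 10.7). None of these 10 rows belonged to a cluster of 5 or more, and 7 stood alone. Their GC content lay between 41.0% and 46.5% except near *Tomm20* (55.5%).

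The central 200 bases of the rows ranked 1, 2, 3 and 5 by lowest score are shown, while the row ranked 4, near *Asxl3*, is not shown. They are given for their composition, on the plus strand of mm9, with matches to any of the words searched, on either strand, in capitals. Each holds 1 or 2 such matches, and the row near *Efnb2* has TAATCC and CAGCTG.
Near Dnahc5, chr15:28570228-28570427: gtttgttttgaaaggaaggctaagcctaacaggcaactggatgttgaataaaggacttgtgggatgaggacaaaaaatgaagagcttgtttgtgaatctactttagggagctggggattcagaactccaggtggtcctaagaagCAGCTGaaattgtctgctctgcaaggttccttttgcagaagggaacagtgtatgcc
Near Setmar, chr6:107873749-107873948: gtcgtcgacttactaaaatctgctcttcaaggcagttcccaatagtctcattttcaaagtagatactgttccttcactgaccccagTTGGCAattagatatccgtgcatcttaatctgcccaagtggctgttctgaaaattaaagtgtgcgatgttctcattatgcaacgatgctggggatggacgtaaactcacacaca
Near Efnb2, chr8:8420883-8421082: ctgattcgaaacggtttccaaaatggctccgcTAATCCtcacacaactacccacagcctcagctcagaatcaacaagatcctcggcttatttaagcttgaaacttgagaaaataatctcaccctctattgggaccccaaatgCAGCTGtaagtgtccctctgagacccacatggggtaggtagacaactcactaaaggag
Near Myo16, chr8:10198346-10198545: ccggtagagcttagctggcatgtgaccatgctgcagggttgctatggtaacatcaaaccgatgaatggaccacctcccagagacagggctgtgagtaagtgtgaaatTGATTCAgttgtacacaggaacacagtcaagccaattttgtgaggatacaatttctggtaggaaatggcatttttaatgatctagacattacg

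The highest row of each of the 4 largest clusters is shown in the same way, to set the cluster between *En1* and *Insig2* beside those among gene families.
Between En1 and Insig2, chr1:122950269-122950468: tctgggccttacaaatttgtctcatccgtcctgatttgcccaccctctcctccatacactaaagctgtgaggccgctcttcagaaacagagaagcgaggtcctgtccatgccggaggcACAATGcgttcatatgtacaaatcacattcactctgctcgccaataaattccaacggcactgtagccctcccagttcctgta
Between Gm2790 and Gm2799, chrX:30504670-30504869: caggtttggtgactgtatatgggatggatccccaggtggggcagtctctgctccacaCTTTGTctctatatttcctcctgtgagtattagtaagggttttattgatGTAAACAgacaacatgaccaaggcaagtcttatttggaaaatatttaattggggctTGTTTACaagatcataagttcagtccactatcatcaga
Between Gm9257 and Gm10479, chr12:20305381-20305580: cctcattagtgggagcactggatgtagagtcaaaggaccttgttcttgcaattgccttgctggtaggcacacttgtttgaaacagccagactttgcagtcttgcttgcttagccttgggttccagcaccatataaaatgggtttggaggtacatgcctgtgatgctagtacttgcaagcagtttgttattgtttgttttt
Between Plekhb2 and Hs6st1, chr1:35906895-35907094: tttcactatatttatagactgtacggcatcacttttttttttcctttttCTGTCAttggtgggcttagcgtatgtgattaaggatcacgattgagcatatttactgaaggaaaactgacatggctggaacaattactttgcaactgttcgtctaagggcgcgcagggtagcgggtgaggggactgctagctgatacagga

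By nearest coding TSS, the 4794 rows fell to 2146 genes, of which 1046 had 1 row, 218 had 5 or more and 19 had 10 or more. *Igfbp7* had most, with 15 rows from 70.0 to 1585 kb away, followed by *Fam86* (14), *Stim2*, a calcium sensor of the endoplasmic reticulum (12), and *Robo1*, a receptor for Slit guidance cues (12). *Zfp608*, *Lsamp* and the ephrin receptor gene *Epha7* had 11 each. Among 12 genes with 10 rows, *Mat2b*, *Jmjd1c* and *Olfm4* had the highest median lowest scores. A gene beside a desert is nearest to more sequence than others, and several of these genes flank the deserts named above. The shared distal rows nearest to the same genes numbered between 1 and 4 a gene.

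Genes of midbrain dopaminergic fate were taken from a list of 30, of which 29 were in the annotation. As the coding gene on either side, 15 of them flanked 78 distal DA-only rows, 1.63% of the set, beside 1.25% of the shared distal rows (19) and 1.10% of all distal rows (402). Of the 130 distal rows with 3 DA peaks beside genes of this list, 60.0% were DA-only, near the 56.4% of all such rows. *En1* flanked most, with 14 rows from 83.7 to 622 kb from its TSS, and 1 of the 20 distal rows with 3 DA peaks beside *En1* was shared by all 5 libraries. Over the genome, 1523 of 8493 such rows were shared. *En1* was the nearest coding gene for 4 of its 14 rows, while the rows of the cluster between *En1* and *Insig2* lay nearer to *Insig2*. *Foxa2*, the forkhead factor of the floor plate, flanked 11 rows, the highest being chr2:147621361-147622553 scoring 7.86, 10.8 and 7.67 in the 3 DA replicates in turn. *Nr4a2*, the orphan nuclear receptor that DA neurons require, flanked 9, with 7.95, 11.8 and 10.2 at chr2:56514826-56515365. Another 9 flanked *Otx2*, a homeodomain factor of forebrain and midbrain, and the highest of these (chr14:49212923-49213662) scored 8.68, 10.7 and 8.30. The median lowest scores of the rows beside these genes were 4.05 for *En1*, 4.49 for *Foxa2*, 4.26 for *Nr4a2* and 4.17 for *Otx2*. Beside *Otx2*, 5 rows formed a cluster of 58.2 kb (chr14:49158121-49216329), and 0 of 14 distal rows with 3 DA peaks were shared by all 5 libraries.

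Fewer rows flanked the other genes of this list. Among them, *Ebf1* and *Pou4f1* flanked 6 each, *Msx1* 5, and *Lmx1a*, *Sox6* and *Ferd3l*, a bHLH factor of the floor plate, 3 each. *Barhl2* and *Pax5* flanked 2 each, and *Lmx1b* and *Ebf2* 1 each. The rows beside *Ferd3l* had the highest median lowest score of the list, 7.55, led by chr12:34226440-34226980 with 8.59, 8.56 and 9.19. Beside *Lmx1a*, the highest row was chr1:170023322-170023460 with 4.54, 4.99 and 4.25. These scores are close to the medians of the set. The row beside *Lmx1b* scored 7.77, 5.03 and 6.36, and the 5 rows beside *Msx1* formed a cluster of 94.2 kb.

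Of 22 genes of dopamine transmission and DA neuron survival, 11 flanked 24 distal DA-only rows (0.501%), against 0.394% of shared distal rows and 0.395% of all distal rows. Of the 39 distal rows with 3 DA peaks beside genes of this list, 61.5% were DA-only, against 56.4% of all such rows. Among these genes, *Calb1*, a calcium-binding protein, and *Kcnj6*, a potassium channel subunit of DA neurons, flanked 5 each, *Ret* and *Gdnf* 3 each, *Ntrk2* 2, and *Aldh1a1*, *Bdnf*, *Cck*, *Dlk1* and *Gfra1* 1 each. The highest rows scored 8.29, 7.35 and 11.5 beside *Calb1* (chr4:15714008-15714411), and 5.50, 6.16 and 6.57 beside *Kcnj6* (chr16:95297995-95298585). *Ret*, which encodes the signalling receptor of GDNF family ligands, had its 3 rows between 51.2 and 55.2 kb upstream. The highest of them, chr6:118198522-118199354, scored 6.63, 8.28 and 6.00. No other distal row beside *Ret* had 3 DA peaks, and 3 are too few to read the absence of shared rows from.

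Words were also looked up in the 102 rows that flank a gene of these 2 lists, after their values were seen. TAATTA was present in 18 of them (17.6%, against 11.5% of the whole set), TAATCC in 13 (12.7%, against 11.5%), TGTTTAC in 10 (9.80%, against 6.15%) and AAAGGTCA in 2 (1.96%, against 4.09%). The counts are small, and no difference from the whole set was tested. The rows with AAAGGTCA were chr11:45100201-45100783 beside *Ebf1* and chr6:118199828-118200383, 52.3 kb from the TSS of *Ret*, scoring 5.12, 6.81 and 5.09 in the 3 DA replicates in turn. The latter also held TAATTA and TGTTTAC. Of the whole set, 12 rows (0.250%) held at least 3 of the 4 words, beside 0 of 1523 shared distal rows. At so low a share few would be found in the smaller set, and no contrast in this combination of words is read from the 0. The central bases of the row near *Ret* are shown for this combination, on the plus strand of mm9, with matches to the words searched in capitals.
Near Ret, chr6:118200006-118200205: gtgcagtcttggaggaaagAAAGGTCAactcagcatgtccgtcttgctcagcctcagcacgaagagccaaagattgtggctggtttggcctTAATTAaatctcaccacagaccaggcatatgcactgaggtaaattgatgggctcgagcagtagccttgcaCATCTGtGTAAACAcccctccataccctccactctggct

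Lists for the hindbrain and 5-HT neurons gave shares near the background. Of the shared distal rows, 0.460% flanked the serotonergic list and 0.722% the hindbrain list. Of 15 genes of serotonergic fate and transmission, 6 flanked 24 rows (0.501%, against 0.562% of all distal rows), among them *Gata3* (12), *Nkx6-1* (5), *Htr1b* (3), *Tph2* (2) and *Htr1a* (1). The rows beside *Gata3* lay in a long gap, up to 2632 kb from its TSS. Of 21 genes of hindbrain segment position, 7 flanked 26 rows (0.542%, against 0.584%), among them *Irx3* and *Meis1* (7 each), *Meis2* (4), *Irx5* and *Irx2* (3 each).

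Genes with long flanks of other kinds took larger counts. Of the shared distal rows, 3.22% flanked the neural transcription factors and 2.36% the axon guidance genes. Neural transcription factors (51 in the annotation) flanked 186 rows, 3.88% against 3.30% of all distal rows, led by *Sox2* and *Zeb2* (14 each), *Satb1* (13), and *Zic4*, *Id2*, *Nr2f1* and *Nr2f2* (11 each). Axon guidance genes flanked 148, 3.09% against 3.00%, led by *Epha7* (21), *Robo1* (18), *Efnb2* (13), *Unc5d* (12) and *Robo2* (11). The row between *Robo1* and *Robo2* with the highest score, chr16:73259856-73260626, had 10.4, 11.5 and 9.86 in DA replicates 1, 2 and 3. Adhesion and synapse organising genes flanked 343, the most of any list, at 7.15% against 7.71% of all distal rows and 4.73% of the shared distal rows. Among distal rows with 3 DA peaks the direction was the opposite, as 67.0% of the 512 beside adhesion genes were DA-only, against 56.4% of all such rows. Beside the neural transcription factors this share was 58.5% of 318, and beside the axon guidance genes 59.2% of 250. *Lphn3* and *Pcdh17* flanked 22 each, and *Odz2*, *Lsamp* and *Pcdh7* 17 each.

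Markers of other cells were, like the list of dopamine transmission, somewhat above their share of all distal rows. Among distal rows with 3 DA peaks, the direction turned for the GABAergic and glutamatergic markers. Beside them, 14 of 28 such rows were DA-only, a lower share than the 56.4% of all such rows. Beside the glial, vascular and microglial markers the share was higher, at 65.8% of 38. These counts are small, and no difference was tested. Of the shared distal rows, 0.0657% (1 row) flanked the GABAergic and glutamatergic markers and 0.460% the glial, vascular and microglial markers. Of 20 GABAergic and glutamatergic markers, 10 flanked 14 rows (0.292%, against 0.217% of all distal rows), with 2 rows each for *Dlx2*, *Pax6*, *Slc17a6* and *Pax3*, and 1 each for *Dlx6*, *Gad2*, *Helt*, *Pax7* and *Six3*, among others. Of 24 glial, vascular and microglial markers in the annotation, 5 flanked 25 rows (0.521%, against 0.378%), namely *Cdh5* (11), *Pdgfra* (6), *Slc1a3* (4), *Aqp4* (2) and *Kdr* (2). *Cdh5* encodes the cadherin of endothelial cells and sits in a run of cadherin genes. A flanking gene is the nearest coding gene by position, and which promoter a row acts on was not measured.

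Non-coding genes were as close to these rows as to distal rows of any kind, and since the rule left out the promoters and bodies of non-coding genes too, their number near the rows is in part fixed by it. A TSS of any annotated kind lay within 5 kb of 126 rows (2.63%, against 2.81% of distal rows of any kind), while 3590 (74.9%, against 75.1%) were more than 50 kb from every annotated TSS. Among the near ones, 35 were pseudogenes, 23 processed transcripts, 20 snRNAs, 18 snoRNAs, 14 miRNAs and 6 lincRNAs. The named miRNA genes among these 14 were *Mirlet7i*, *Mir667*, *Mir129-2* and *Mir193b*, named after their values were seen, with distances of 2126, 305, 1877 and 1425 bp and lowest DA scores of 5.93, 3.88, 3.39 and 3.35. The lincRNA with the highest-scoring row nearby, likewise named afterwards, was *4933440J02Rik* on chromosome 10 (6.03 at 1530 bp).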

How the data were processed

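ATAC-seq libraries of sorted DA (3) and 5-HT (2) cells at E14.5 were used. Per the study's methods, trimming was by Trimmomatic, alignment to mm9 by Bowtie2, duplicate removal by Picard, peak calling by MACS2 and merging of close peaks by BEDOPS, with versions not given in the sources used here. The deposited lists share 131942 rows and give each a score per library, which is 0 where the authors called no peak. A line with a misspelled chromosome name was assigned to the chromosome meant. Rows were placed by their centre with GENCODE genes, and sequence was read from the genome of the same build. Intervals, where given, are 95% Wilson intervals. Libraries were compared by an exact permutation test, and no test was made across rows. A 32-letter word was called repeated when it occurs more than once in the genome on either strand.

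The members and the lists of genes and words were chosen with earlier results of these data known. Named were the 8 clusters with most rows, the 6 deserts with most rows and the 3 longest, the 10 rows with the highest lowest score, the 5 farthest rows, the 10 genes nearest to most rows, genes of the 2 dopaminergic lists that flank a row, and the 5 genes of each other list that flank most, except for some genes not used here. Ties were broken by median score, or by rows per Mb for deserts, and genes of a list tied for the last place are named with the same exception. Alternatives left out each library, used equal numbers of peaks, and changed the distance, annotation, promoter, cluster gap, desert length and window. Counts without repeated rows, at like GC content, by position and near *Ret* were added after seeing the data. Tables were handled with pandas 2.3.3 and NumPy 2.4.6 under Python 3.11.15, statistics with SciPy 1.17.1 and sequence with pysam 0.24.0. The steps were tested on simulated data. RNA-seq was not analysed here.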

Additional observations from a re-analysis of the deposited data

How the results depend on the processing

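The number of distal DA-only rows (4794) stayed within 1.5 times of itself when the distance was 100 kb, when any annotated TSS counted, when promoters or gene bodies were taken differently, when close rows were merged, and, added after seeing the data, without repeated sequence (4724, with 30 clusters of 5 or more and 1382 rows in deserts). Leaving out 1 library at a time gave 5035 to 9446 rows, a DA-only share of 58.0 to 79.2%, 41 to 241 clusters, 1441 to 2798 rows in deserts and a GC difference of -4.00 to -3.0 points. The highest counts came without DA replicate 1, the highest share without 5-HT replicate 1, and the GC difference nearest to 0 without 5-HT replicate 2. With peaks limited to the number in the shortest list, there were 667 rows, a share of 35.4%, 0 clusters and 191 rows in deserts, and with 10000 peaks 106, 26.4%, 0 and 34, with a GC difference of -5.00 points. Fewer peaks leave fewer rows by construction, while the cause of the lower share was not tested. Beyond 100 kb, the share was 60.1% and clusters numbered 20. A gap of 25 or 100 kb gave 11 or 105 clusters, and deserts of 500 kb or 2 Mb held 2617 or 474 rows. The difference in distal share (-0.13 points) turned to 8.09 with all peaks (exact p = 0.200), to 0.10 with 10000 peaks (exact p = 0.900) and to 0.47 without DA replicate 2 (exact p = 0.667), with a lowest value of -0.66 without DA replicate 3, and the cause was not tested. Paired by replicate number as a replicate block, it was -0.66 (exact p = 1.00). With 500 bp windows no word changed the sign of its difference from shared rows, but 15 of 19 differences moved by more than the counting error (Wilson) of the word's share in the DA-only set, as for CAGCTG from 3.00 to 1.30 points and for GTTGCCA from -0.30 to -2.10 points, and the cause was not tested. The number of libraries, 3 against 2, limits every comparison between groups, and peak lists without read counts set no limit of detection.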

Other observations

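In the opposite direction, 137 distal intergenic rows scored above 0 in both 5-HT libraries and 0 in every DA library. Their median width was 342 bp, their median GC content 48.0% and their median distance to a coding TSS 155 kb, and 45 of them lay in deserts of at least 1 Mb. The row with the highest lowest score, chr13:5728158-5728877, lay 132 kb from *Klf6* and scored 4.94 and 5.61 in 5-HT replicates 1 and 2.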
